A study of Homo sapiens with 3 samples.

Results

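The metallothioneins and the zinc response were followed through 9 genes, taken by gene symbol from a table of 44591 genes. They are the metallothionein genes MT1A, MT1E, MT1F, MT1G, MT1M, MT1X and MT2A, the metal-sensing transcription factor MTF1 and the zinc exporter SLC30A1. All 9 had a row in the table, and 5 of them (MT2A, MT1X, MT1A, MTF1 and SLC30A1) had a mean level of 1 RPKM or more over the libraries. RPKM is the number of reads on a gene divided by its length in kilobases and by the sequencing depth. The cells were Caki-1, an established line of human clear cell renal carcinoma, harvested 48 h after transfection. They had received a control siRNA (si-Control) or 1 of 2 siRNAs against RBCK1, which the labels call si-HOIL-1#1 and si-HOIL-1#2 after another name of the protein and which are called si-RBCK1 #1 and si-RBCK1 #2 here. Each condition had 1 library, from 1 cell line, so that no value below has a replicate error and no p-value was computed. Each siRNA was compared with si-Control on its own, and both comparisons share that control library.

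Metallothioneins are small cytosolic proteins in which conserved cysteines hold zinc, copper and cadmium in metal-thiolate clusters, and they buffer free zinc. When zinc rises, MTF1 enters the nucleus, binds metal response elements (MREs) in the promoters of the metallothionein genes and of SLC30A1, and raises their transcription. SLC30A1 (ZnT1) then carries zinc out across the plasma membrane. The proximal tubule, from which clear cell carcinoma is thought to arise, is a site of metallothionein expression in the kidney. Glucocorticoids and oxidants also raise metallothionein transcription, and RBCK1 (HOIL-1) is itself a protein with zinc-binding RING-type domains and a subunit of the linear ubiquitin ligase complex.

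The metallothionein genes are near-copies of each other, which bears on every value below, so the coding sequences of MT2A, MT1X and MT1E are shown with that of MT1L, a transcribed relative. They were read from the GENCODE transcripts of build GRCh38, and capitals mark the bases that are unlike MT2A. Each has 186 bases, or 62 codons with the stop codon. MT2A, MT1X and MT1E have 20 cysteine codons each.
MT2A: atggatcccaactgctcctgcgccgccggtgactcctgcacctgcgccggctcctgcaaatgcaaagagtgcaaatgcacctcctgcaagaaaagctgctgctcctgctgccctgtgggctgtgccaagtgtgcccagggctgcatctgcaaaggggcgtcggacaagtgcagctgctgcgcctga
MT1X: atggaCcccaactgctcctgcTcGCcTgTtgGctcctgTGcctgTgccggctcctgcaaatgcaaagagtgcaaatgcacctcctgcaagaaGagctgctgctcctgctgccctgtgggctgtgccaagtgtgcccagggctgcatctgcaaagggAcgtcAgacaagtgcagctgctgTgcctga
MT1E: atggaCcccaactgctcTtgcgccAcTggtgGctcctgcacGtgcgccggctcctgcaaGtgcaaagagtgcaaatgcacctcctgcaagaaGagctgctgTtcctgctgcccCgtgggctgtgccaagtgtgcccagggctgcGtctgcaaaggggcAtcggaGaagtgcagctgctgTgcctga
MT1L: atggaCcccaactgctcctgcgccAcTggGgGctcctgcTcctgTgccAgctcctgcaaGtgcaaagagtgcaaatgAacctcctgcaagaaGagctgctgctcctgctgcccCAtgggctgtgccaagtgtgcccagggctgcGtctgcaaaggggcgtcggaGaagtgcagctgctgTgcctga
MT1X and MT1E each had 14 bases unlike MT2A, an identity of 92.5%. The aligned stretch of MT1L, which the deposited table lists as misc_RNA and not as protein-coding, had 16 bases unlike MT2A and a stop at codon 26. Over the whole annotated transcripts, the share of 50-nt stretches that also occur in another gene was 3.02% for MT2A, 5.76% for MT1A, 7.10% for MT1E, 1.22% for MT1F, 9.87% for MT1M, 16.5% for MT1G and 18.3% for MT1X. With 36-nt stretches the shares ran from 2.51% for MT1F to 21.1% for MT1G, and were 6.17% for MT2A and 12.7% for MT1A. The read length is not given in the sources used here. Reads from such stretches cannot be given to a single gene, so the levels of single metallothioneins carry that uncertainty. Their sum is less affected only for reads that pass among the summed genes. Some stretches are shared with genes outside the sum, such as MT2P1 for MT2A and AC026461.1 for MT1X. How the authors' counting treated reads with several matches is not given in the sources used here. SLC30A1 had no shared 50-nt stretch.

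The promoters of the zinc-responsive members are shown for their MREs, the sites through which MTF1 acts. The 250 bases before the transcription start were taken from RefSeq (build GRCh38.p14) and are written on the strand of the gene. Capitals mark every match, on either strand, to the MRE core spelled TGCACNC or TGCGCNC. The 2 spellings cannot match at the same bases, and in these promoters no matches overlapped.
MT2A promoter, chr16:56608334-56608583, plus strand: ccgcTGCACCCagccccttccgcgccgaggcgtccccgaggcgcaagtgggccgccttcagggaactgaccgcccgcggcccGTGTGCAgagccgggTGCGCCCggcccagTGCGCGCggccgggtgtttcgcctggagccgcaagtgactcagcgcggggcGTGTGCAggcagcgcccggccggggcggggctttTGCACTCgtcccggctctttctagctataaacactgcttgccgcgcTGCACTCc
MT1X promoter, chr16:56682220-56682469, plus strand: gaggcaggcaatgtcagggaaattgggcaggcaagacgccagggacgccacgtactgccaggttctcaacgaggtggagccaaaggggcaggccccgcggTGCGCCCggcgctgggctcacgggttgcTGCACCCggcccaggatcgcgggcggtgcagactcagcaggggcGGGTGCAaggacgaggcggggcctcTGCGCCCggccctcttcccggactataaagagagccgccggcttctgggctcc
SLC30A1 promoter, chr1:211579162-211579411, minus strand: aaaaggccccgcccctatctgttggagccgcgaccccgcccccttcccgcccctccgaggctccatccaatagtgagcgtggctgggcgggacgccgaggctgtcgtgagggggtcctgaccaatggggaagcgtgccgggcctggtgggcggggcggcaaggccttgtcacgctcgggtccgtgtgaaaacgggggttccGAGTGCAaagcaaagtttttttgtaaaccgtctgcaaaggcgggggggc
MT2A had 7 matches, 5 on its own strand and 2 on the other, and 0.0313% of 35116 promoters of the same length had at least as many. MT1X had 4 matches, a number reached or passed by 0.370% of promoters. SLC30A1 had 1 match, and 24.8% of all promoters had at least 1. The promoter of MTF1 had 0. A match is a stretch of letters and not a measured binding site. Of the 9 members, 4 had a promoter in the table used. MT1A, MT1E, MT1F, MT1G and MT1M did not.

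The siRNAs themselves bear on the members, since a short match to a guide strand can lower an unrelated transcript. Their sense strands, as listed by the study, are printed with the bases that pair with guide positions 2 to 8 in capitals.
si-RBCK1 #1: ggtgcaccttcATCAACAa
si-RBCK1 #2: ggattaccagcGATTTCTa
RBCK1 was the only gene with a full match to either siRNA. The 7-base match to si-RBCK1 #1 occurred in the transcripts of 22.3% of 19669 genes, and that to si-RBCK1 #2 in 25.9%. Among the 9 members, SLC30A1 held a match to each, and no other member held one.

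The targeted gene was examined first. RBCK1 stood at 33.3 RPKM in the si-Control library, 9.97 RPKM after si-RBCK1 #1 and 12.3 RPKM after si-RBCK1 #2. It was thus lower with both siRNAs, at 29.9% and 36.8% of the control level. The difference in log2(RPKM + 1) was -1.65 and -1.37. Whole reads behind the RPKM values were recovered from their steps (5294, 1735 and 1917 for RBCK1), with library totals of 36926834, 40442939 and 36344428 reads. Exact Clopper-Pearson intervals (95%) from these reads, which cover counting error only, put the log2 ratio of RBCK1 reads at -1.74 (-1.82 to -1.66) and -1.44 (-1.52 to -1.37). Of 9 markers of a renal epithelial line, 6 were at 1 RPKM or more in every library, and their summed level was 1115 RPKM in si-Control against 2043 and 2047 RPKM. VIM had the highest mean of these markers, at 1189 RPKM. VIM accounts for most of the difference, with 664 RPKM in si-Control and 1512 and 1392 RPKM in the si-RBCK1 libraries, while PAX8 (124, 82.5 and 107 RPKM) and MET (144, 112 and 109 RPKM) were lower in both. The part of these differences between the libraries in the metallothionein values was not tested. Summed markers of leukocytes, endothelium and hepatocytes stayed at or under 0.400 RPKM in each library, with CD3E at 0. Fibroblast markers summed to 3.53 to 4.93 RPKM, nearly all from COL1A1.

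MT2A dominated the metallothionein transcripts in all conditions. It had 1116 RPKM in the si-Control library, 1081 RPKM after si-RBCK1 #1 and 1171 RPKM after si-RBCK1 #2. With a mean of 1123 RPKM it ranked 35 among all genes and 33 among protein-coding genes. MT2A lies at chr16:56642478-56643409 on the plus strand (hg19 coordinates, as for all gene positions of the deposited table below), at one side of a cluster of metallothionein genes, and encodes the broadly expressed metallothionein-2. Its difference from the control was -0.05 with si-RBCK1 #1 and 0.07 with si-RBCK1 #2 on the log2(RPKM + 1) scale. The levels in the si-RBCK1 libraries thus lay on both sides of the control, at 96.9% and 105% of it. The size depended on the scaling: the difference with si-RBCK1 #1 was -0.10 with equal totals, and that with si-RBCK1 #2 was 0.02 with equal medians and 0.04 with equal totals. From 17262, 18323 and 17836 reads, the log2 ratios of reads were -0.05 (-0.08 to -0.02) and 0.07 (0.04 to 0.10). These intervals exclude 0 because the depth is large, and how far repeat transfections would differ is not known. In bulk RNA, a change in the RNA of each cell and a change in the share of cells that express a gene cannot be told apart.

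MT1X and MT1A followed at much lower levels. MT1X (chr16:56716382-56718108, plus strand), another metal-inducible metallothionein, had 19.3 RPKM in si-Control, 15.97 RPKM after si-RBCK1 #1 and 17.7 RPKM after si-RBCK1 #2. Both si-RBCK1 libraries were below the control, by differences of -0.26 and -0.12 in log2(RPKM + 1). From 288, 261 and 260 reads, the counting interval of the log2 ratio was -0.52 to -0.03 with si-RBCK1 #1 and -0.37 to 0.12 with si-RBCK1 #2, so that the second included 0. Compared within a library, the level of MT2A was 57.8 times that of MT1X in si-Control, 67.7 times with si-RBCK1 #1 and 66.1 times with si-RBCK1 #2.

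MT1A (chr16:56672578-56673999, plus strand) was the member with the largest difference between the siRNAs on the log2(RPKM + 1) scale. It had 10.3 RPKM in the si-Control library, 8.87 RPKM after si-RBCK1 #1 and 21.0 RPKM after si-RBCK1 #2. The library of si-RBCK1 #2 stood above the other 2, which lay close together. On the log2(RPKM + 1) scale the difference was -0.19 with si-RBCK1 #1 and 0.97 with si-RBCK1 #2. The latter was just under the 2-fold limit of 1, while the plain ratio of RPKM was 2.05. The smallest whole reads that give these values were 75, 71 and 151, for a gene length of 198 nt. They put the log2 ratio at -0.21 (-0.70 to 0.28) with si-RBCK1 #1 and 1.03 (0.62 to 1.45) with si-RBCK1 #2. Between the siRNAs, #2 over #1, the log2 ratio of reads was 1.24 (0.83 to 1.67). If the authors had used the annotated transcript of 396 nt, the reads would be 150, 142 and 302 and the last interval 0.95 to 1.54. MT1A rested on far fewer reads than MT2A, and the library of si-RBCK1 #2 decides its difference.

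**Figure D1:**
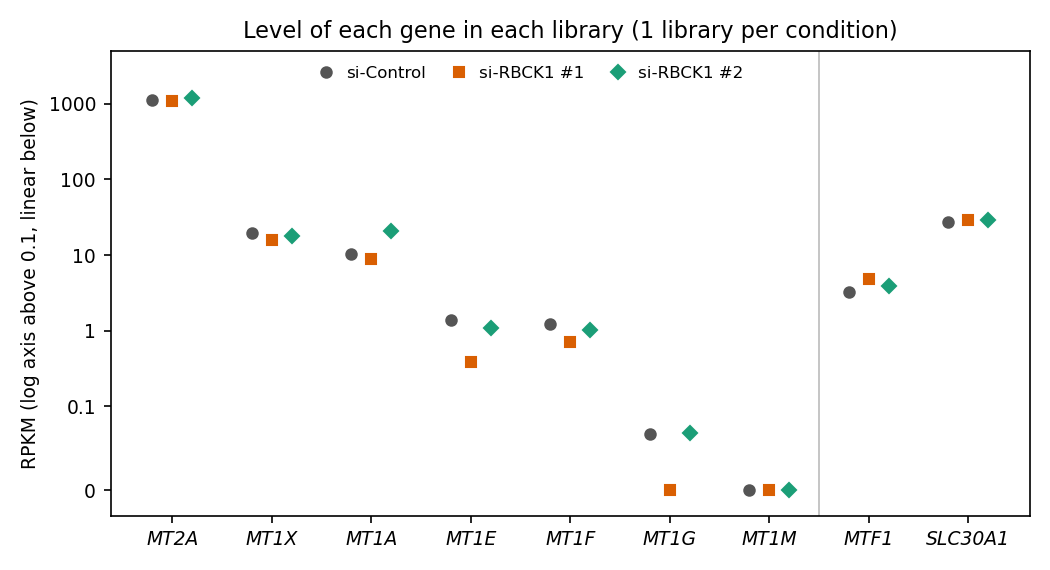
Level of each of the 9 genes in RPKM (vertical axis, logarithmic above 0.1 and linear below) in the si-Control, si-RBCK1 #1 and si-RBCK1 #2 libraries, 1 point per library and no error bars since each condition had 1 library. MT2A sits between 1081 and 1171 RPKM, and MT1A is the expressed metallothionein whose si-RBCK1 #2 point stands apart, at 21.0 RPKM.

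The other metallothionein members had few reads or none. MT1E (chr16:56659585-56661024, plus strand) had 1.39 RPKM in si-Control, 0.391 RPKM after si-RBCK1 #1 and 1.09 RPKM after si-RBCK1 #2. The smallest whole reads that give these values were 13, 4 and 10. The reads of MT1F and MT1G below are such lower limits too. The log2 ratio of reads was -1.83 (-3.91 to -0.14) with si-RBCK1 #1 and -0.36 (-1.71 to 0.95) with si-RBCK1 #2, whereas the differences in log2(RPKM + 1) were -0.78 and -0.20. At these smallest reads, the wide intervals leave the size of the lower MT1E value with si-RBCK1 #1 nearly undetermined. MT1F (chr16:56691855-56693215, plus strand) had 1.23, 0.717 and 1.03 RPKM in the same order, from 22, 14 and 18 reads. Its differences were -0.38 and -0.14 in log2(RPKM + 1), and both counting intervals of its reads, -1.86 to 0.25 and -1.25 to 0.70, included 0. MT1G (chr16:56700647-56701977), the one member on the minus strand of the cluster, had 1 read in si-Control, 0 with si-RBCK1 #1 and 1 with si-RBCK1 #2, so that no ratio was read from it. MT1M (chr16:56666534-56667898, plus strand) was at 0 in every library. A count of 0 allows up to 3 reads of each library total.

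Ordered by mean level per length, the members ran from MT2A through SLC30A1, MT1X, MT1A, MTF1, MT1F, MT1E and MT1G to MT1M. The ranges of MT1X and MT1A over the libraries overlapped, and MT1A exceeded MT1X with si-RBCK1 #2. The ranges of MT1F and MT1E overlapped too, while SLC30A1 was above MT1X and MT1A above MTF1 in every library.

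Since reads may pass between near-identical copies, the 7 metallothionein members were also summed. The sum was 1148 RPKM in si-Control, 1107 RPKM after si-RBCK1 #1 and 1212 RPKM after si-RBCK1 #2. MT2A made up 97.2%, 97.7% and 96.6% of it, so the sum followed MT2A. The difference of the sum was -0.05 and 0.08 on the log2 scale, and from 17661, 18673 and 18276 reads the intervals were -0.08 to -0.02 and 0.04 to 0.10. Without MT2A the remaining 6 genes summed to 32.2, 25.9 and 40.9 RPKM, with differences of -0.30 and 0.33, of which MT1A and MT1X hold nearly all the level. In the sum without MT2A, the opposite direction of the 2 siRNAs rested on MT1A. Without MT1A as well, the other 5 genes summed to 22.0, 17.1 and 19.9 RPKM and were lower with both siRNAs, by -0.35 and -0.14.

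MTF1 and SLC30A1 stand at the sensing and the export end of the response. MTF1 (chr1:38275239-38325292, minus strand) had 3.22 RPKM in si-Control, 4.80 RPKM after si-RBCK1 #1 and 3.86 RPKM after si-RBCK1 #2. Both si-RBCK1 libraries were above the control, by 0.46 and 0.20 in log2(RPKM + 1). Its 949, 1548 and 1119 reads gave log2 ratios of 0.57 (0.46 to 0.69) and 0.26 (0.13 to 0.39). A row named TRNAN-GUU, a tRNA gene, overlaps MTF1 in the deposited positions. The same name also overlaps SLC30A2, GCLM and SLC30A7, far apart on chromosome 1, so a tRNA gene inside MTF1 is not shown. How the authors' counting treated that row is not given in the sources used here. SLC30A1 (chr1:211748381-211752099, minus strand) had 27.2 RPKM in si-Control, 29.1 RPKM after si-RBCK1 #1 and 29.04 RPKM after si-RBCK1 #2. Its levels were nearly the same in both si-RBCK1 libraries, 0.10 and 0.09 above the control in log2(RPKM + 1). From 2026, 2379 and 2130 reads, the log2 ratios were 0.10 (0.01 to 0.19) and 0.10 (0.01 to 0.18). SLC30A1, the member with a short match to each siRNA guide, was slightly higher in both libraries. Whether these matches act on its level was not tested. The size depended on the scaling. The difference was 0.04 with equal totals for si-RBCK1 #1 and 0.04 with equal medians for si-RBCK1 #2. The counting intervals, which only just exclude 0, hold no error of scaling.

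**Figure D2:**
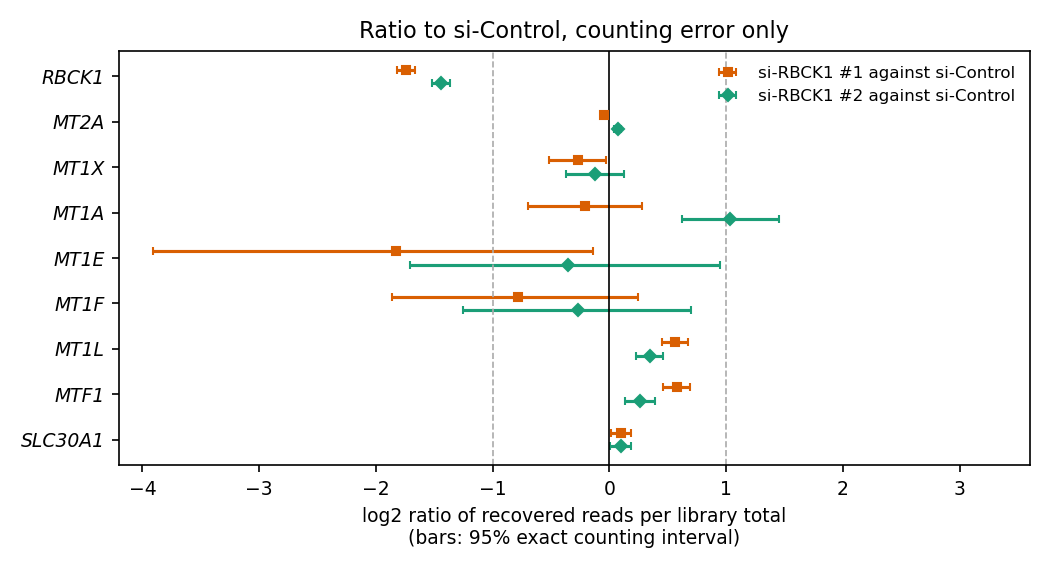
Log2 ratio of recovered reads per library total against si-Control (horizontal axis, dashed lines at 2-fold) for RBCK1, 7 of the 9 members and MT1L, with squares for si-RBCK1 #1, diamonds for si-RBCK1 #2 and bars for exact 95% counting intervals, which hold no replicate error. RBCK1 lies at -1.74 and -1.44, MT2A and SLC30A1 lie close to 0, MT1A lies at -0.21 and 1.03, and the bars of MT1E and MT1F are the widest.

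On the log2(RPKM + 1) scale none of the 9 members reached 2-fold. MT1G and MT1M, with 1 read or none per library, could not do so with 1 RPKM added. The shares of all genes are therefore to be set beside the 5 members at 1 RPKM or more. The count was 0 with si-RBCK1 #1, where 2.91% of 12403 genes with a mean level of 1 RPKM or more were at least 2-fold higher and 3.27% at least 2-fold lower. It was 0 with si-RBCK1 #2, where the shares were 2.5% and 2.27%. At such shares, 0 of these 5 does not set the members apart from other genes. With a pseudocount of 0.1 RPKM, 1 member passed in each comparison, MT1E with si-RBCK1 #1 and MT1A with si-RBCK1 #2. Over the 5 members at 1 RPKM or more, the median difference was -0.05 with si-RBCK1 #1 and 0.09 with si-RBCK1 #2, while the median over all genes at that level was 0.02 and 0.03. Over all 9 members the median was -0.09 and 0.001, which are the values of MT1G and rest on 1 read or none per library. The middle 95% of all genes ran from -1.08 to 1.04 with si-RBCK1 #1 and from -0.96 to 1.00 with si-RBCK1 #2, so that each of the 5 members at 1 RPKM or more lay inside it.

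The 7 metallothionein members, chosen by family name, share a position, while MTF1 and SLC30A1 lie on chromosome 1. From MT4 to MT1X, 17 listed genes lie within 119.1 kb of chromosome 16, and they hold all 7 metallothionein members. Of the 17, 6 were at 0 in every library and 5 were at 1 RPKM or more in every library, namely MT2A, MT1L, MT1A, MT1X and a lincRNA. That lincRNA, on the minus strand 0.935 kb from the start of MT2A, had 1.71 RPKM in si-Control, 1.62 RPKM after si-RBCK1 #1 and 1.36 RPKM after si-RBCK1 #2. MT1F and MT1E, between MT2A and MT1X, were near 1 RPKM.

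MT1L (chr16:56651373-56652730, plus strand), whose reading frame is interrupted, was the second most abundant row of the family. It had 69.2 RPKM in si-Control, 102 RPKM after si-RBCK1 #1 and 87.8 RPKM after si-RBCK1 #2. Both si-RBCK1 libraries were above the control, by 0.55 and 0.34 in log2(RPKM + 1). From 1089, 1758 and 1360 reads, the log2 ratios were 0.56 (0.45 to 0.67) and 0.34 (0.23 to 0.46). Its direction was thus the same with both siRNAs, unlike that of MT2A. Of its stretches, 4.42% at 50 nt and 10.6% at 36 nt occur in another annotated gene. MT1L held 5.69%, 8.43% and 6.76% of the level summed over all metallothionein rows, and with these rows included the sum differed from si-Control by -0.009 and 0.09. Of 13 other metallothionein genes and pseudogenes looked up, 9 had a row, 5 of these were at 0 in all 3 libraries, and MT1L was the one with a mean level of 1 RPKM or more. MT3, the metallothionein of brain, had 0, 0.255 and 0.0473 RPKM, and MT4, that of stratified epithelium, had 0.0921, 0 and 0 RPKM.

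The transport of zinc was then examined beyond SLC30A1. The counts of this and the later lists stand beside those of all genes at 1 RPKM or more. Of these, 2.91% with si-RBCK1 #1 and 2.5% with si-RBCK1 #2 were at least 2-fold higher. At least 2-fold lower were 3.27% and 2.27%, and the median difference was 0.02 and 0.03. No list was tested against these values. Among 10 ZnT exporters, 5 had a mean level of 1 RPKM or more, and 0 of these reached 2-fold with either siRNA. SLC30A1 had the highest mean of them, although SLC30A9 was higher in si-Control, at 32.9 RPKM. SLC30A1 was the one above the control in both comparisons, while the other 4 (SLC30A5, SLC30A6, SLC30A7 and SLC30A9) were below it in both. The medians of the 5 were -0.05 and -0.14. Among 14 ZIP importers, 11 had a mean level of 1 RPKM or more, and 7 were above and 4 below the control with each siRNA. SLC39A11 (ZIP11), the sole human ZIP of its subfamily, was at least 2-fold lower in both, at 10.5 RPKM in si-Control, 3.78 RPKM after si-RBCK1 #1 and 3.71 RPKM after si-RBCK1 #2, or -1.26 and -1.28 on the log2(RPKM + 1) scale. SLC39A1 (ZIP1), the ZIP with the highest mean, had 57.2, 75.1 and 72.4 RPKM, 0.39 and 0.34 above the control. In si-Control SLC39A14 (ZIP14) was higher, and it had 83.0, 43.3 and 54.9 RPKM, or -0.92 and -0.59. The medians of the 11 were 0.10 and 0.02.

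Of 8 genes known to depend on MTF1 outside the metallothioneins, SLC30A1 among them, 7 had a mean level of 1 RPKM or more. With si-RBCK1 #1, 1 of these was at least 2-fold lower, and with si-RBCK1 #2 none was. That gene, CSRP1, a LIM-domain protein, had 12.9 RPKM in si-Control, 5.83 RPKM after si-RBCK1 #1 and 7.65 RPKM after si-RBCK1 #2, or -1.03 and -0.69 on the log2(RPKM + 1) scale. SELENOH, a nuclear selenoprotein with the highest mean of the list, had 48.4, 49.4 and 50.2 RPKM. In si-Control NDRG1 was slightly higher, and it had 50.1, 25.6 and 41.2 RPKM, or -0.94 and -0.28. The medians of the 7 were 0.03 and 0.09, near those of all genes. The list was not sorted by the direction in which MTF1 acts on each gene, so its median does not measure MTF1 activity.

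Metallothioneins bind copper as well as zinc, and all 13 genes of copper uptake, chaperones and export looked up had a mean level of 1 RPKM or more. STEAP3, a reductase of iron and copper, was at least 2-fold higher with both siRNAs, at 6.84 RPKM in si-Control, 16.3 RPKM after si-RBCK1 #1 and 15.8 RPKM after si-RBCK1 #2. SCO2, a copper chaperone of cytochrome c oxidase, had 0.418, 1.69 and 2.14 RPKM and passed 2-fold with si-RBCK1 #2, but it overlaps other genes on both strands and its reads may not be its own. ATOX1, the copper chaperone with the highest level, had 72.5, 101 and 91.8 RPKM. The list as a whole had medians of 0.19 and 0.10, with 7 and 9 of the 13 genes above the control.

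Other routes to metallothionein induction were set beside the members. Of 10 heavy metal and oxidative stress genes, 2 were at least 2-fold lower with si-RBCK1 #1 and 1 with si-RBCK1 #2. None was as much higher. Over all genes at 1 RPKM or more, 3.27% and 2.27% were at least 2-fold lower. HMOX1, heme oxygenase, had 68.2 RPKM in si-Control, 16.9 RPKM after si-RBCK1 #1 and 37.3 RPKM after si-RBCK1 #2. SLC7A11, the cystine importer, had 13.4, 4.21 and 4.76 RPKM. The differences in log2(RPKM + 1) were -1.95 and -0.85 for HMOX1 and -1.47 and -1.32 for SLC7A11, and no metallothionein member lay as far below the control in both comparisons on this scale. NQO1, a quinone reductase, had the highest mean of the list, with 153, 229 and 177 RPKM. In si-Control TXNRD1, thioredoxin reductase, was higher, and it had 231, 145 and 153.5 RPKM. Of 10 genes of the glucocorticoid receptor and its induced genes, 8 had a mean level of 1 RPKM or more, and SGK1, a kinase, was at least 2-fold higher with si-RBCK1 #1, at 3.41, 8.82 and 5.88 RPKM. CEBPD, a transcription factor with the highest mean of that list, had 124, 148 and 163 RPKM. Of the 8 genes, 5 were above the control with si-RBCK1 #1 and 4 with si-RBCK1 #2. DUSP1 (101.5, 56.8 and 62.8 RPKM), NR3C1 and TSC22D3 were below it in both. The medians of these lists were -0.11 and -0.18 for stress genes and 0.26 and 0.003 for glucocorticoid genes.

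Genes beside the metallothionein cluster, which share its stretch of chromosome but are not metallothioneins, were compared last. Whether they respond to metals was not examined. Of 10 such genes, 7 had a mean level of 1 RPKM or more and 0 reached 2-fold. With si-RBCK1 #1, 1 was above the control, and with si-RBCK1 #2 none was, with medians of -0.22 and -0.21. HERPUD1, an endoplasmic reticulum stress gene and the highest of them, had 98.9 RPKM in si-Control, 74.7 RPKM after si-RBCK1 #1 and 85.1 RPKM after si-RBCK1 #2. MT2A, at -0.05 and 0.07, and MT1L, at 0.55 and 0.34, thus lay above the median of their neighbours in both comparisons, and MT1X lay below it with si-RBCK1 #1.

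Finally, the genes with the pattern nearest to that of the summed metallothioneins were looked up, by the distance between pairs of log2 differences. Among 7746 protein-coding genes whose mean was 5 RPKM or more, 323 lay within 0.1 of the pair. The 5 nearest were PCDHGB5 at 0.00565, BAIAP2L2 at 0.00800, DCPS at 0.0108, PCIF1 at 0.0135 and CDC42BPB at 0.0144. A likeness over 3 libraries that many genes show is a description only.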

How the data were processed

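RNA of Caki-1 cells was sequenced from 3 libraries, 1 per condition. The labels describe ribosomal RNA depletion and a directional kit. The submitters' processing notes name hg19, Trimmomatic, FastQC, TopHat2 and HTSeq. The gene annotation and whether strand was used in counting are not given in the sources used here. The authors deposited 1 table with an RPKM value per gene and library. Its other columns hold the authors' own comparison (group levels, log2 ratios, p-values and q-values) and were not used.

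Differences were computed as log2(RPKM + 1), for each siRNA against si-Control. All 9 members are reported, and shares of all genes are over 12403 genes with a mean level of 1 RPKM or more. The limit was 2-fold, a difference of 1. Genes spanning at most 200 nt, which hold 1 or a few reads, gave the library totals. For 110 of 111 genes searched (not DUSP1), lengths to 60000 nt were tried for the smallest whole reads that give the deposited values. These reads are lower limits, so intervals are at their widest. Totals and reads were tested on simulated data.

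Members and gene lists were chosen with earlier results of these data known. The genes named are the members, RBCK1, list genes at least 2-fold changed with either siRNA, the highest gene of each list, and the 5 genes nearest to the summed metallothioneins. MT3, MT4, the lincRNA, the 4 other ZnT genes, SLC39A14, NDRG1, TXNRD1, VIM, PAX8 and MET were named after their values were seen. One sequence is not reported here. Those shown came from GENCODE transcripts, RefSeq promoters and the study's siRNA list. Alternatives were pseudocounts of 0.1 and 5 RPKM, equal medians, equal totals, other filters, limits of 1.5-fold and 4-fold, and recovered reads. The tools were Python 3.11.15 with scipy 1.17.1, pandas 2.3.3, numpy 2.4.6 and, for figures, matplotlib 3.10.9.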

Additional observations from a re-analysis of the deposited data

Results flagged for a closer look

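MT1A lay on opposite sides of si-Control with the 2 siRNAs, by -0.19 with si-RBCK1 #1 and 0.97 with si-RBCK1 #2 on the log2(RPKM + 1) scale. With si-RBCK1 #1 the counting interval of the log2 ratio of reads (-0.70 to 0.28) included 0, so that no change was shown there. The counting interval of #2 over #1 (0.83 to 1.67) excluded 0, but with 1 library each the difference was not tested against replicate spread.

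MT2A also lay on opposite sides of si-Control, by -0.045 with si-RBCK1 #1 and 0.070 with si-RBCK1 #2. This difference was not tested either.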

How the results depend on the processing

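No paired analysis was possible because 1 library stood for each condition, and no library could be left out. For the 5 members at 1 RPKM or more, 46 of 50 alternative values moved by less than the distance from the centre of the counting interval to its edge, 4 moved by more and 0 reversed. For the other named genes outside the members the counts were 101, 38 and 1 of 140. The difference of MT1E with si-RBCK1 #1 went from -0.78 to -1.60 with a pseudocount of 0.1 RPKM, within its wide interval. The number of members past 2-fold went from 0 to 1 in each comparison with a pseudocount of 0.1 RPKM and with a limit of 1.5-fold. For the summed metallothioneins with si-RBCK1 #1, the log2 difference was -0.11 with equal totals, -0.0090 with all metallothionein genes and pseudogenes and -0.30 without MT2A. With si-RBCK1 #2 it was 0.028 with equal medians, 0.046 with equal totals and 0.33 without MT2A. In a setting chosen after seeing the data, without MT2A and MT1A, the differences were -0.35 and -0.14, so that the second reversed. RBCK1 differed by -1.73 with a pseudocount of 0.1 RPKM, -1.36 with 5 RPKM and -1.74 from recovered reads with si-RBCK1 #1, and by -1.15 with 5 RPKM with si-RBCK1 #2. The other values that reversed were close to 0: SELENOH with si-RBCK1 #1 was -0.026 with equal totals, and MT1G with si-RBCK1 #2 was -0.0017 with equal medians and -0.00062 with equal totals. Apart from the settings themselves, the cause of these shifts was not tested. Rescaling moved the median of all genes by at most 0.06. Depth limits MT1E, MT1F, MT1G and MT1M, and the scatter between transfections was not measured.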
